A study of Gallus gallus with 48 samples.

Results

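Expression of 7 genes of the WNT pathway was followed in the chick retina: the R-spondins RSPO2 and RSPO3, the ligand WNT5A, the secreted antagonists SFRP1, SFRP2 and FRZB, and the nuclear factor LEF1. The platform annotation assigned 17 probe sets to these genes, of 38382 probe sets tested on the Affymetrix Chicken array. There was 1 probe set each for RSPO2, SFRP2 and FRZB, 3 each for RSPO3 and LEF1, and 4 each for WNT5A and SFRP1. The genes were chosen with their lens differences, the dependence of these on duration and their change with time in control eyes already known, so those values are given as a description, without a p-value.

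The animals were one-week-old White Leghorn chicks kept on 12 hours of light per day. Each of 24 birds wore a spectacle lens on 1 eye, and the fellow eye without a lens was its control. The lens-wearing eyes formed 4 groups of 6: -15 D for 6 hours, +15 D for 6 hours, -15 D for 3 days and +15 D for 3 days. The control eyes of the same birds formed the 4 matching groups. A negative lens shifts focus to a plane behind the photoreceptors, and a positive lens shifts it forward into the eye. The tissue was retina with its pigment epithelium (RPE), and 100 ng of total RNA per eye was labelled with a NuGEN Ovation kit. Values are RMA log2 intensities, so a difference of 1 on this scale is a doubling, and they cannot be compared between probe sets.

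WNT proteins bind Frizzled receptors and LRP coreceptors. In the canonical branch this stabilises beta-catenin, which enters the nucleus and activates genes together with LEF and TCF factors. R-spondins are secreted proteins that bind LGR receptors and remove the ubiquitin ligases RNF43 and ZNRF3, which otherwise clear Frizzled receptors from the cell surface, so they make cells more sensitive to WNT. Secreted Frizzled-related proteins such as SFRP1, SFRP2 and FRZB bind WNTs outside the cell. In the developing eye the pathway takes part in the patterning of the RPE and the peripheral retina.

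The median intensity of an array lay between 6.38 and 6.50 log2, and any pair of arrays correlated at 0.952 to 0.997 over all probe sets. Background was set at 4.50 log2, the 95th percentile of 541 probe sets for viral sequences. All 6 photoreceptor markers, all 7 Muller glia markers and 10 of 11 RPE markers measured were above background on average. So were 10 of 11 markers of choroid and sclera, the tissues behind the RPE, with LUM below it. The mean level of the choroid and sclera list ran from 6.29 to 9.72 in lens eyes and from 6.00 to 8.92 in control eyes. A list of crystallins and other markers of the crystalline lens stayed between 6.73 and 7.19 in lens-wearing eyes but reached 12.57 in single control eyes. In bulk samples, fewer cells of a type and less RNA per cell cannot be told apart.

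RSPO2, which potentiates WNT signalling through LGR receptors, was lower in the lens eye than in the control eye of all 12 birds sampled at 6 hours, under both lens powers. At 3 days it was lower in 3 of 6 birds with a -15 D lens and in 5 of 6 birds with a +15 D lens. Its probe set was above background on all 48 arrays, at a mean of 7.25 log2.

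After 6 hours of a +15 D lens, RSPO2 stood at 7.07, 7.01, 7.03, 7.03, 7.17 and 7.04 in the lens eyes of birds 1 to 6, against 7.55, 7.21, 7.44, 7.68, 7.98 and 7.53 in their control eyes. No lens eye reached the lowest control eye, and the lens eyes lay within a much narrower band. The share of all probe sets without overlap is not given here. The mean difference was -0.50 ± 0.21 log2 (SD, n = 6 birds), a 1.42-fold lower level under the lens. In this comparison 0.00782% of all probe sets were called at an adjusted p below 0.05 in the limma fit, all of them lower, and RSPO2 was the 1 of the 17 member probe sets among them. RSPO2 was chosen with this difference known, so its call is part of the description and not an independent test. That call was lost when bird 1, 3, 4, 5 or 6 was left out, with a mean difference of -0.567 to -0.445 log2 over all alternatives. The difference between 3' and 5' probe sets of actin, a measure of RNA integrity, was -0.19 ± 0.32 log2 between the eyes of these birds (SD) and above 0 in 3 of 6. Its part in the RSPO2 value was not tested.

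After 6 hours of a -15 D lens, RSPO2 stood at 7.24, 7.28, 7.23, 6.74, 7.47 and 7.11 in the lens eyes, against 7.43, 7.58, 7.66, 7.44, 7.50 and 7.34 in the control eyes. The groups overlapped, and bird 5 differed by only -0.03. The mean difference was -0.31 ± 0.23 log2 (SD, n = 6), or 1.24-fold lower. None of the 17 member probe sets was called here, where 0.0391% of all probe sets were (0.00261% higher and 0.0365% lower). In these birds the actin 3' to 5' difference was below 0 in 6 of 6, at -0.16 ± 0.20 log2, and the crystalline lens list was at -1.40 ± 2.27 log2 (SD). The list was at -2.59 in bird 3 and -5.55 in bird 5, between -0.18 and 0.03 in the other 4, and at -0.57 on average without bird 5. RSPO2 differed by -0.44 log2 in bird 3 and by -0.03 log2 in bird 5. Their part in the RSPO2 value was not tested.

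After 3 days of a -15 D lens, the lens eyes held 7.0, 6.79, 7.66, 6.90, 7.20 and 7.05 log2 of RSPO2 signal and the control eyes 6.88, 6.89, 7.63, 6.99, 7.10 and 7.27. Neither eye was higher throughout, and the mean difference was -0.026 ± 0.13 log2 (SD, n = 6). After 3 days of a +15 D lens, the lens eyes held 6.94, 7.25, 7.21, 7.13, 7.25 and 7.06, against 7.46, 7.41, 7.40, 7.38, 7.15 and 7.32 in the control eyes. Bird 5 was the exception in which the lens eye was higher, and the mean difference was -0.21 ± 0.20 log2 (SD, n = 6). No member probe set was called in either condition, where 0.0703% of all probe sets were called for -15 D (0.0182% higher and 0.0521% lower) and 0.00521% for +15 D, all lower.

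**Figure D1:**
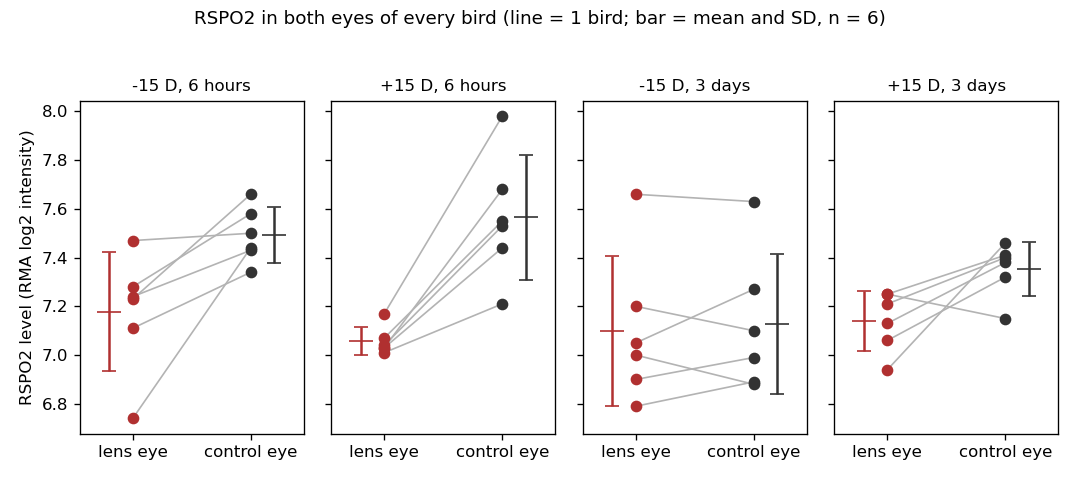
RSPO2 level (RMA log2 intensity) in the lens eye and the control eye of every bird, by condition. Points are eyes, lines join the eyes of a bird, and bars give the mean and SD of 6 eyes. All 12 lines rise towards the control eye at 6 hours, and the lens eyes of the +15 D birds at 6 hours lie together between 7.01 and 7.17.

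The RSPO2 difference was closer to 0 at 3 days than at 6 hours under both lenses. The lens effect at 3 days minus that at 6 hours was 0.29 log2 for -15 D (-0.026 against -0.31) and 0.30 log2 for +15 D (-0.21 against -0.50). The distributions of the 6 birds overlapped in both cases. None of the 17 member probe sets was called for dependence on duration, against 0.0104% of all probe sets for -15 D (0.00782% higher and 0.00261% lower) and 0% for +15 D.

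The 4 lens-eye means of RSPO2 lay between 7.06 and 7.18 log2, and the 4 control-eye means between 7.13 and 7.56 log2. From lowest to highest, the 8 group means were 7.06 ± 0.058 (+15 D lens eyes, 6 hours), 7.10 ± 0.31 (-15 D lens eyes, 3 days), 7.13 ± 0.29 (control eyes of those birds), 7.14 ± 0.12 (+15 D lens eyes, 3 days), 7.18 ± 0.24 (-15 D lens eyes, 6 hours), 7.35 ± 0.11 (control eyes of the +15 D birds, 3 days), 7.49 ± 0.12 (control eyes of the -15 D birds, 6 hours) and 7.56 ± 0.26 (control eyes of the +15 D birds, 6 hours). Of the 7 steps between neighbours in this order, only that from 7.35 to 7.49 exceeded the larger SD of its pair. The lens eyes at 3 days differed from those at 6 hours by -0.078 log2 in -15 D birds and by 0.083 log2 in +15 D birds. The matching differences in control eyes were -0.37 and -0.21 log2.

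Over all control eyes, RSPO2 averaged 7.24 ± 0.24 log2 at 3 days and 7.53 ± 0.19 log2 at 6 hours (SD, n = 12 each). The 12 control eyes at 3 days had a lowest, median and highest value of 6.88, 7.30 and 7.63, against 7.21, 7.52 and 7.98 at 6 hours. A total of 5 of the 12 eyes at 3 days lay below every eye at 6 hours, and the rest overlapped. The difference was -0.29 log2, or 1.22-fold lower at 3 days. None of the 17 member probe sets was called in this comparison, where 1.85% of all probe sets were. The birds' age, the set of birds and possibly the time of day of collection, for which no source used here gives a value, went with duration and cannot be told apart from it. Between the sets of birds, RSPO2 in control eyes was tested: it was -0.071 log2 in -15 D birds relative to +15 D birds at 6 hours (SE 0.12, limma adjusted p = 0.829) and -0.23 log2 at 3 days (SE 0.12, adjusted p = 1.00), and neither passed. The same control eyes entered the differences known when the genes were chosen.

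**Figure D2:**
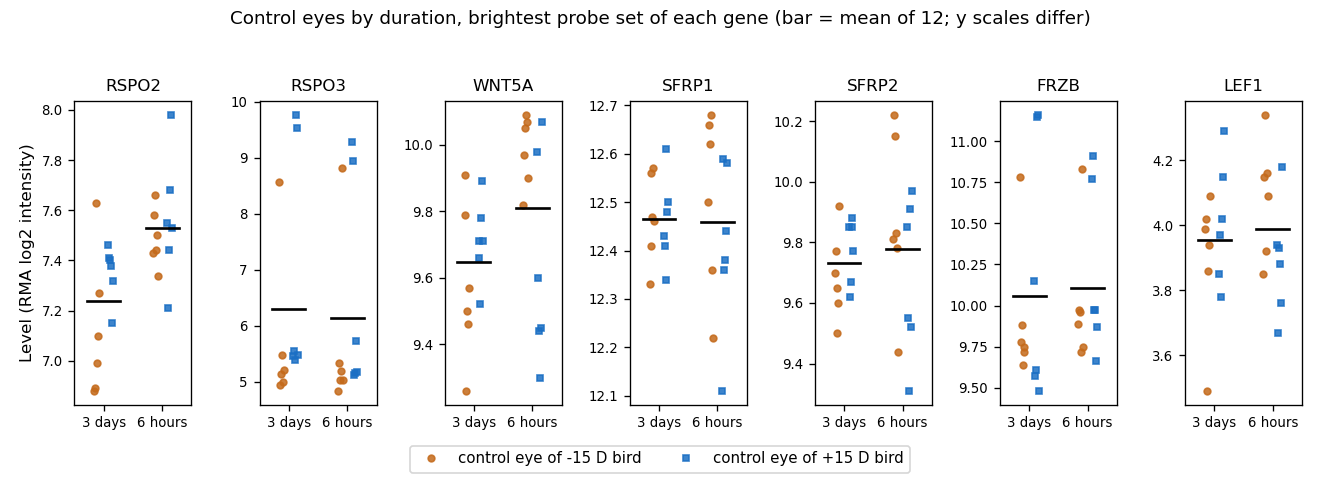
Levels of the 7 genes (RMA log2 intensity, brightest probe set, own scale per gene) in control eyes at 3 days and 6 hours. Points are eyes, with shape and colour for the lens worn by the fellow eye, and bars are means of 12 eyes. RSPO2 averages 7.24 at 3 days and 7.53 at 6 hours, RSPO3 and FRZB have a few eyes far above the rest, and the WNT5A values of both sets of birds overlap at 6 hours, at 9.82 to 10.09 in -15 D birds and 9.30 to 10.07 in +15 D birds.

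RSPO3, the other R-spondin among the 7 genes, behaved unlike RSPO2: it differed by several log2 units between the eyes of single birds, in either direction. After 6 hours of a -15 D lens, it stood at 6.64, 4.77, 9.66, 7.58, 4.78 and 5.28 in the lens eyes, against 4.84, 5.34, 5.04, 5.19, 8.82 and 5.04 in the control eyes. Bird 3 was high in the lens eye and bird 5 was high in the control eye. After 6 hours of a +15 D lens the lens eyes read 7.65, 5.34, 7.0, 6.22, 5.29 and 4.86 and the control eyes 9.28, 8.94, 5.13, 5.16, 5.73 and 5.18. Here birds 1 and 2 were high in the control eye.

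At 3 days, single eyes on either side were again high. RSPO3 read 6.89, 5.74, 5.43, 5.44, 6.02 and 5.85 in the lens eyes of the -15 D birds, against 8.57, 4.95, 5.15, 5.48, 5.00 and 5.22 in their control eyes. It read 10.55, 5.71, 6.09, 5.14, 6.89 and 7.43 in the lens eyes of the +15 D birds, against 5.46, 5.55, 5.39, 9.76, 9.53 and 5.48 in their control eyes. The groups overlapped in all 4 conditions, and the mean differences were 0.74 ± 2.96 (-15 D, 6 hours), -0.51 ± 1.95 (+15 D, 6 hours), 0.17 ± 0.98 (-15 D, 3 days) and 0.11 ± 3.42 log2 (+15 D, 3 days; SD, n = 6 each).

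The SD of the 24 RSPO3 differences was 2.38 log2, higher than for 99.9% of the probe sets tested. The second RSPO3 probe set followed the first with a correlation of 0.988 over the 24 differences, so the spread was not that of a single probe set. The third RSPO3 probe set was above background on none of the 48 arrays, and its mean differences lay between -0.014 and 0.040 log2.

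RSPO3 exceeded 8 log2 in 2 of 24 lens eyes and in 6 of 24 control eyes, from 8 different birds. The limit of 8 lies in the gap between 7.65 and 8.57 and was set with the values in view. FRZB, a secreted antagonist first known from cartilage, ran from 10.77 to 12.14 log2 in those 8 eyes and from 9.40 to 10.49 log2 in the other 40. The choroid and sclera list, which holds collagens and small proteoglycans such as DCN, averaged 8.0 to 9.72 log2 in those 8 eyes and 6.00 to 8.29 log2 in the other 40.

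Across the 24 birds, the RSPO3 difference correlated with the difference of the choroid and sclera list at Pearson's r = 0.97 and Spearman's rho = 0.95, as a description. Without the 2 birds farthest from the median of the list, r was 0.97. Within the conditions r was 0.98 (-15 D, 6 hours), 0.99 (+15 D, 6 hours), 0.85 (-15 D, 3 days) and 0.99 (+15 D, 3 days). For FRZB the correlation was r = 0.92 and rho = 0.84, with r = 0.88 without the 2 farthest birds and 0.97, 0.82, 0.59 and 0.98 within the conditions in the same order. Both values of a point come from the same pair of arrays. Other marker lists also went with both genes over the 24 birds. Against vessels and smooth muscle, r was 0.94 for RSPO3 and 0.94 for FRZB. It was 0.90 and 0.91 against blood and immune cells, 0.82 and 0.90 against RPE, and 0.82 and 0.90 against optic nerve glia. Against photoreceptors it was -0.52 and -0.48. The correlation is thus not particular to choroid and sclera, and the part of any of these tissues in the RSPO3 and FRZB values was not tested.

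For RSPO2 the correlation had the opposite sign. Against the choroid and sclera list over the 24 birds it was r = -0.37 and rho = -0.33, with r = -0.37 without the 2 farthest birds and -0.67, -0.57, -0.65 and -0.71 within the conditions in the same order. In the +15 D birds at 6 hours, where RSPO2 was lowest relative to control, the list differed by 0.039 ± 1.22 log2 (SD, n = 6) and was above 0 in 4 of 6 birds. With the list entered as a covariate, added after the data were seen, the RSPO2 difference in that condition was -0.502 log2, beside -0.50 log2 without it. After 6 hours of -15 D it was -0.24 log2, beside -0.31 log2 without the covariate. Because the list differed so little on average in the +15 D birds at 6 hours, the covariate could hardly move the mean there. Other marker lists gave a negative r with RSPO2 as well over the 24 birds. It was -0.42 against vessels and smooth muscle, -0.33 against optic nerve glia, -0.30 against blood and immune cells and -0.28 against RPE. Against inner retinal neurons it was 0.15 and against striated muscle 0.16. The negative correlation is thus not particular to choroid and sclera. The part of any of these tissues in the RSPO2 values was not tested.

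**Figure D3:**
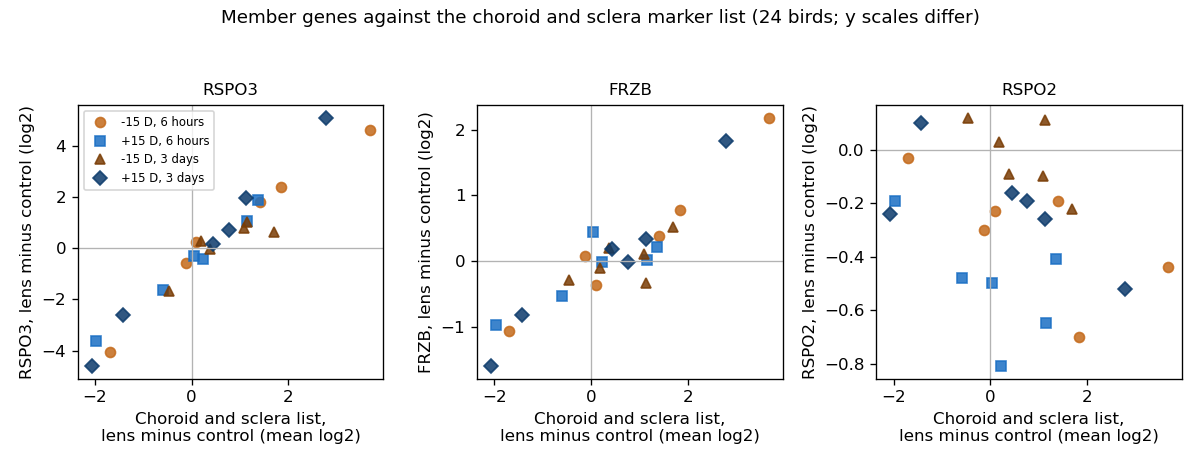
Within-bird difference (lens minus control, log2) of RSPO3, FRZB and RSPO2 against the mean difference of the choroid and sclera marker list. Points are birds, with shape and colour for the condition, and the vertical scales differ. RSPO3 (r = 0.97) and FRZB (r = 0.92) rise with the list along a line, and RSPO2 (r = -0.37) lies mostly below 0 across the range of the list.

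FRZB itself differed by 0.33 ± 1.11 (-15 D, 6 hours), -0.14 ± 0.52 (+15 D, 6 hours), 0.015 ± 0.33 (-15 D, 3 days) and -0.013 ± 1.16 log2 (+15 D, 3 days; SD, n = 6 each), with overlap in each condition. Its lens eyes ran from 9.40 to 12.14 after 6 hours of -15 D, against 9.72 to 10.83 in the control eyes. Under +15 D for 3 days the lens eyes ran from 9.55 to 11.98 and the control eyes from 9.48 to 11.16. The SD of its 24 differences was 0.82 log2, higher than for 98.5% of probe sets. FRZB and RSPO3 moved together, with r = 0.92 over the 24 differences and r = 0.94 over the 24 control eyes, as a description.

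WNT5A, a ligand best known for signalling that does not use beta-catenin, was higher in the lens eye of every bird that wore a -15 D lens for 3 days. Its brightest probe set stood at 10.03, 9.91, 9.55, 9.83, 9.87 and 10.05 in those lens eyes, against 9.91, 9.79, 9.26, 9.50, 9.46 and 9.57 in the control eyes. The groups overlapped although each lens eye exceeded its own control. The difference was 0.29 ± 0.15 log2 (SD, n = 6), or 1.22-fold. It was 0.093 ± 0.14 log2 after 6 hours of -15 D, 0.083 ± 0.19 after 6 hours of +15 D and 0.055 ± 0.17 after 3 days of +15 D (SD, n = 6 each).

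The other 3 WNT5A probe sets differed less under -15 D for 3 days, by 0.053, 0.16 and 0.23 log2, and were above 0 in 5, 5 and 4 of 6 birds. Their correlation with the brightest one over the 24 differences was 0.19, 0.45 and 0.56. In the same 6 birds the actin 3' to 5' difference was also higher in the lens eye of all 6, by 0.32 ± 0.14 log2 (SD). The list of striated muscle markers differed there by 1.34 ± 1.99 log2, with birds 5 and 6 at 3.53 and 4.26 and the other 4 between -0.03 and 0.15, and its mean was 0.76 log2 without bird 6. The choroid and sclera list differed by 0.67 ± 0.78 log2 and was above 0 in 5 of 6 birds, with birds 2, 5 and 6 at 1.09, 1.14 and 1.70. WNT5A differed by 0.12, 0.41 and 0.48 log2 in these birds. The list of vessel and smooth muscle markers differed by 0.33 ± 0.55 log2 and was above 0 in 5 of 6. Their part in the WNT5A value was not tested.

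WNT5A was also compared between the sets of birds in their control eyes. At 6 hours, the control eyes of -15 D birds stood at 9.82 to 10.09 and those of +15 D birds at 9.30 to 10.07. None of these eyes wore a lens, and the choice of genes did not use this comparison, so it was tested. The same control eyes did enter the differences known at that choice, so the test is not fully independent of it. The brightest probe set was 0.34 log2 higher in the control eyes of -15 D birds (SE 0.12, limma adjusted p = 0.228), which did not pass the threshold. The other 3 were higher by 0.15, 0.20 and 0.43 log2, with limma adjusted p-values of 0.365, 0.489 and 0.157. None of the 17 member probe sets and none of the 38382 probe sets (0%) passed by limma in this comparison, although 5030 had an unadjusted p below 0.05. The brightest probe set passed with 0.429 log2 when the control eye of bird 6 of the +15 D birds was left out, and with 0.523 log2 under array weights. In those fits 2289 and 5861 of the 38382 probe sets passed, so these calls are not particular to WNT5A.

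At 3 days the control eyes of the -15 D birds and the +15 D birds were compared in the same way. The WNT5A probe sets then differed by -0.13, 0.039, 0.0054 and -0.10 log2, and again 0% of all probe sets were called by limma, with 1504 at an unadjusted p below 0.05. The time difference of WNT5A in control eyes was given within each set of birds. At 3 days minus 6 hours it was -0.40 log2 in the control eyes of -15 D birds and 0.073 log2 in those of +15 D birds. The pooled means were 9.65 ± 0.19 log2 at 3 days and 9.81 ± 0.29 log2 at 6 hours (SD, n = 12 each).

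The mean differences of the antagonists SFRP1 and SFRP2 stayed below 0.2 log2 in size in every condition. SFRP1 binds WNTs and is expressed in the embryonic chick eye. Its lens eyes ran from 12.30 to 12.87 (-15 D, 6 hours), 12.30 to 12.70 (+15 D, 6 hours), 12.36 to 12.51 (-15 D, 3 days) and 12.29 to 12.64 (+15 D, 3 days). The matching control eyes ran from 12.22 to 12.68, 12.11 to 12.59, 12.33 to 12.57 and 12.34 to 12.61, so the groups overlapped throughout. The mean differences were 0.054 ± 0.11, 0.040 ± 0.23, -0.054 ± 0.097 and -0.066 ± 0.17 log2 in that order (SD, n = 6 each).

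The second SFRP1 probe set followed the first (r = 0.85 over 24 differences) and differed by -0.079 to 0.088 log2. The third differed by -0.019 to 0.037 log2. The dimmest, above background on 38 of 48 arrays, did not follow the first (r = -0.22). It differed by 0.12 ± 0.080 log2 after 3 days of -15 D and by -0.16 ± 0.15 log2 after 3 days of +15 D (SD, n = 6 each). In control eyes at 3 days it was 0.33 log2 lower in -15 D birds than in +15 D birds (SE 0.082, limma unadjusted p = 0.000561, adjusted p = 1.00), which did not pass. In the +15 D birds' control eyes it was 0.25 log2 higher at 3 days than at 6 hours, without overlap. The share of all probe sets like it is not given here.

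SFRP2, a relative of SFRP1 with the same WNT-binding domain, was higher in the lens eye of all 6 birds after 6 hours of +15 D. It stood at 9.89, 9.69, 9.70, 9.99, 9.57 and 10.26 in the lens eyes, against 9.85, 9.55, 9.31, 9.91, 9.52 and 9.97 in the control eyes. The groups overlapped, and the difference was 0.17 ± 0.14 log2 (SD, n = 6). In the other conditions it was 0.056 ± 0.12 (-15 D, 6 hours), -0.033 ± 0.094 (-15 D, 3 days) and 0.047 ± 0.18 log2 (+15 D, 3 days; SD, n = 6 each).

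LEF1, which carries beta-catenin to its target genes, was not above background. Its 3 probe sets averaged 4.01, 3.99 and 3.23 log2 and were above 4.50 log2 on 1, 0 and 0 of 48 arrays. The first of them was higher in the lens eye of 6 of 6 birds after 3 days of -15 D, by 0.15 ± 0.074 log2 (SD, n = 6). The third was also higher in 6 of 6, by 0.087 log2, and the second differed by -0.061 log2. RMA compresses differences between signals this dim.

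**Figure D4:**
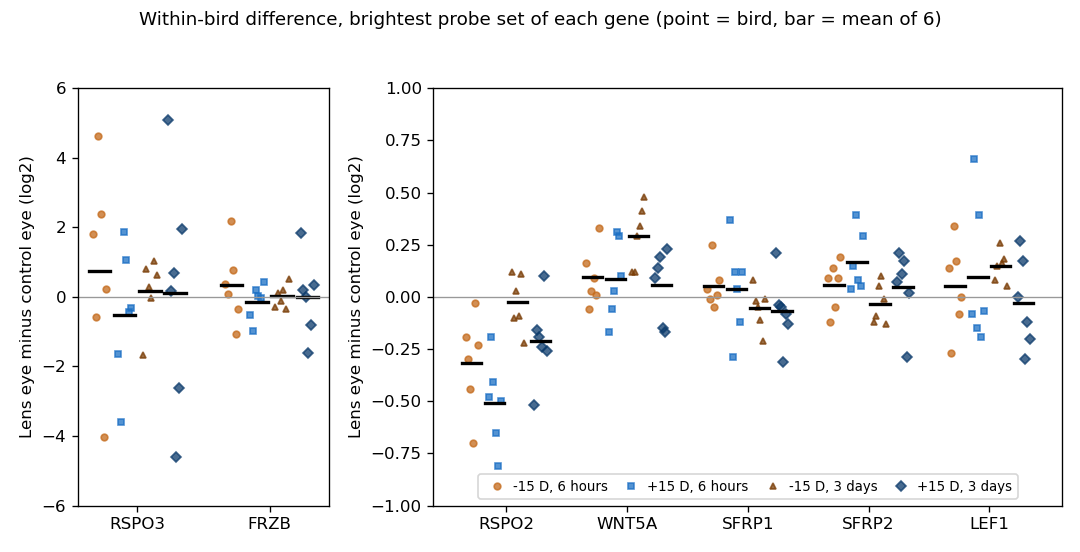
Lens eye minus control eye (log2) for the brightest probe set of each gene in the 4 conditions. Points are birds and bars are means of 6 birds. RSPO3 and FRZB, on the wider scale at left, spread over several log2 units in either direction, while RSPO2 at 6 hours is the one gene of the 5 at right with all 12 birds below 0.

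In control eyes, the time differences of the remaining genes were smaller than the SD of either group. RSPO3 averaged 6.29 ± 1.83 at 3 days and 6.14 ± 1.75 at 6 hours, and FRZB 10.06 ± 0.62 and 10.11 ± 0.45. SFRP1 averaged 12.46 ± 0.088 at 3 days and 12.46 ± 0.18 at 6 hours, SFRP2 9.73 ± 0.13 and 9.78 ± 0.28, and LEF1 3.95 ± 0.20 and 3.99 ± 0.20 log2 (SD, n = 12 each, all 3 days first). Apart from RSPO2, none of the 7 genes had a step between neighbouring group means above the larger SD of the pair on its brightest probe set.

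The other genes of the pathway were taken from a list of 114, chosen by role with earlier results of these data known. A total of 98 were measured and 87 were above background on average. No listed gene passed the limma test in any of the 4 lens comparisons or for dependence on duration. At an unadjusted p below 0.05 there were 5 (-15 D, 6 hours), 8 (+15 D, 6 hours), 10 (-15 D, 3 days) and 3 (+15 D, 3 days). These are 5.1%, 8.16%, 10.2% and 3.06% of the 98 genes, beside 10.1%, 7.51%, 14.2% and 3.92% of all probe sets. The median difference over the 98 genes was 0.046, 0.013, 0.048 and -0.023 log2 in that order, beside 0.0014, -0.000056, 0.0096 and -0.0042 log2 over all probe sets. The 98 genes stand with their brightest probe set each, while all probe sets include dim ones and several per gene. The sets are thus unlike, here and in the shares given below.

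Near RSPO2 in the pathway, the receptors LGR4, LGR5 and LGR6 and the ligase ZNRF3 were measured, together with RSPO1. LGR4 differed by -0.00045 log2 (limma adjusted p = 0.999) after 6 hours of -15 D and by -0.056 log2 (adjusted p = 0.767) after 6 hours of +15 D. LGR5, a receptor that also marks stem cells in gut and skin, was lower in 6 of 6 lens eyes after 3 days of -15 D, by 0.36 log2 on average, and did not pass (limma adjusted p = 0.133). ZNRF3 differed by -0.0040 and 0.057 log2 at 6 hours of -15 D and +15 D (limma adjusted p = 0.992 and 0.848). LGR6 differed by 0.090 and 0.022 log2 in the same conditions (limma adjusted p = 0.835 and 0.975), and RSPO1 by 0.27 and 0.16 log2 (adjusted p = 0.698 and 0.861).

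The listed genes with the lowest p under -15 D lay on one side of 0 in all 6 birds in several cases, without passing. FZD9, a Frizzled receptor, stood at 8.18, 8.03, 8.19, 8.15, 8.29 and 8.25 in the lens eyes after 3 days, against 7.89, 7.92, 7.94, 7.78, 7.94 and 8.01 in the control eyes. Its groups did not overlap, and the share of all probe sets like it is not given here. It differed by 0.27 log2 (SE 0.060, limma adjusted p = 0.0655), beside 0.0703% of all probe sets called. CTNNBIP1, which blocks beta-catenin from binding TCF factors, ran from 5.49 to 6.02 in those lens eyes and from 5.72 to 6.37 in the control eyes, a difference of -0.39 log2 (SE 0.11, limma adjusted p = 0.0975). APC, part of the complex that destroys beta-catenin, ran from 7.94 to 9.21 in lens eyes and from 8.32 to 9.38 in control eyes after 6 hours, a difference of -0.36 log2 (SE 0.099, limma adjusted p = 0.131). Its other 3 probe sets differed by -0.50, -0.23 and -0.058 log2, and the last of these averaged 3.73 log2, below background. The actin 3' to 5' difference also lay on one side of 0 in all 6 birds of these conditions, at 0.32 ± 0.14 log2 after 3 days and -0.16 ± 0.20 log2 after 6 hours (SD), and its part in these values was not tested.

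IGFBP4, an IGF-binding protein that also inhibits WNT receptors, was above 0 in 6 of 6 birds after 3 days of -15 D (0.22 log2, limma adjusted p = 0.129) and in 5 of 6 after 6 hours (0.16 log2, adjusted p = 0.423, and 0.084 log2 without bird 5). WNT9A, a ligand, was higher in 5 of 6 lens eyes after 6 hours of -15 D. Its differences were 2.07, 1.34, 2.90, 1.51, 0.11 and -0.54 log2 in birds 1 to 6, with a mean of 1.23 log2 (limma adjusted p = 0.159). The choroid and sclera list differed by 1.41, -0.12, 3.68, 1.84, -1.70 and 0.10 log2 in the same birds, and its part in the WNT9A value was not tested.

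Under +15 D, AXIN2 had the lowest p at 6 hours. It is a feedback inhibitor and a widely used readout of beta-catenin signalling. It stood at 9.95, 10.02, 9.95, 10.11, 10.14 and 10.54 in the lens eyes, against 9.70, 9.90, 9.79, 9.98, 10.05 and 10.28 in the control eyes, higher in 6 of 6 birds by 0.17 log2 (SE 0.046, limma adjusted p = 0.660). Its second probe set differed by -0.019 log2. DAAM2, a formin that acts with Dishevelled, differed by -0.31 log2 at 6 hours (limma adjusted p = 0.660) and by -0.26 log2 at 3 days (adjusted p = 1.00). At 6 hours bird 1 was at -0.98 and bird 5 at 0.17, the mean was -0.17 log2 without bird 1, and the other 2 probe sets differed by -0.16 and -0.021 log2. The last of these averaged 3.66 log2, below background. WNT11, a ligand, differed by -0.20 log2 at 6 hours (limma adjusted p = 0.660), and its other 2 probe sets by -0.027 and 0.070 log2. The last of these averaged 4.16 log2, also below background. At 3 days ASCL2, a WNT target in gut stem cells, differed by -0.24 log2 and RYK, a WNT receptor, by 0.22 log2 (limma adjusted p = 1.00 each), or 0.11 log2 without bird 1 for RYK. ASCL2 averaged 4.44 log2 over all arrays, below background.

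In control eyes, 2 of the 98 listed genes were lower at 3 days than at 6 hours and none was higher by the limma test, beside 1.08% of all probe sets called lower and 0.769% called higher. DACT1, a binding partner of Dishevelled, had a lowest, median and highest value of 6.06, 6.37 and 6.66 at 3 days, against 6.35, 6.72 and 7.29 at 6 hours. It was lower at 3 days by 0.38 log2 on average (SE 0.096, limma adjusted p = 0.0369). KREMEN1, a receptor for the antagonists of the DKK family, had 4.97, 5.17 and 5.39 at 3 days, against 4.94, 5.49 and 6.06 at 6 hours. It was lower at 3 days by 0.34 log2 on average (SE 0.090, limma adjusted p = 0.0453). DKK2 was the next by p and did not pass, at 0.22 log2 (limma adjusted p = 0.0547). Its other probe set differed by -0.050 log2 but averaged 4.47 log2, just below background.

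Both calls were near the threshold. DACT1 differed by -0.41 log2 in the control eyes of -15 D birds and by -0.35 log2 in those of +15 D birds, and KREMEN1 by -0.16 and -0.53 log2. When each of the 24 control eyes was left out in turn, DACT1 stayed between -0.414 and -0.328 log2 and kept its call in 13 fits, with limma adjusted p-values from 0.0195 to 0.0722. KREMEN1 stayed between -0.395 and -0.293 log2 and kept its call in 6 fits, with limma adjusted p-values from 0.00649 to 0.0824.

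**Figure D5:**
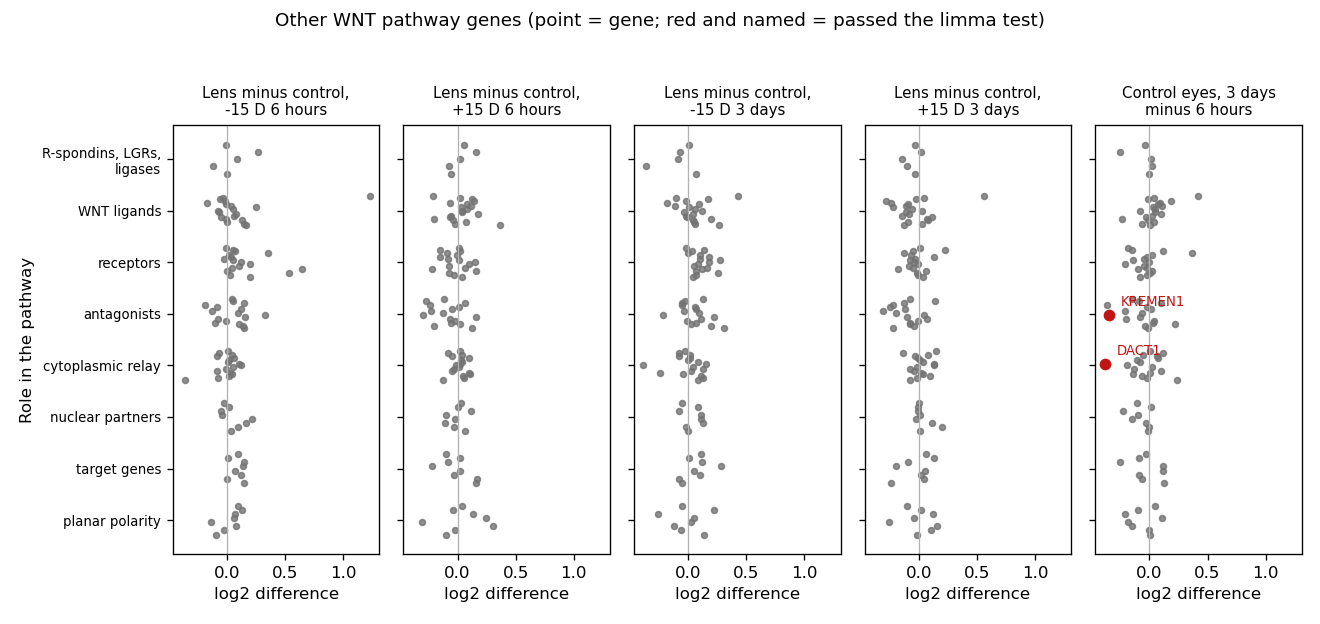
log2 differences of the 98 other WNT pathway genes in the 4 lens comparisons and in control eyes (3 days minus 6 hours), by role in the pathway. Points are genes on their brightest probe set, and the genes that passed the limma test are red and named. None is red in the lens panels, and DACT1 and KREMEN1 are red below 0 in control eyes.

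For each member, the genes with the most similar within-bird differences were sought among 11772 genes above background, as a description over 24 birds. Picking the highest of so many correlations raises r by itself, and how far was not tested. For RSPO2 the most similar genes were VTI1B (r = 0.74), TICRR (0.73), SCNN1G (0.72), KCNK5 (0.69) and EZH1 (0.69). They had the sign of RSPO2 in 12, 13, 13, 19 and 13 of 24 birds in that order. Their own mean differences lay between -0.20 and -0.018 log2 after 6 hours of +15 D. At 3 days all of them were above 0, at 0.10 to 0.33 log2 for -15 D and 0.035 to 0.081 log2 for +15 D, unlike RSPO2. RSPO3 was most like COL1A2 and LAMB1 (r = 0.98 each), and FRZB most like ITIH5 (0.98) and RAMP2 (0.97). COL1A2, a fibrillar collagen that also stands in the choroid and sclera list, differed by 1.59 log2 on average after 6 hours of -15 D. In these birds that list ran from -1.70 log2 in bird 5 to 3.68 log2 in bird 3. Its mean fell from 0.87 to 0.31 log2 without bird 3, so the COL1A2 mean is not a uniform rise. WNT5A was most like SNX3 and TMEM68 (0.86 each), SFRP1 like STAT3 and SLC16A8 (0.86 each), SFRP2 like GPR137B (0.72) and MAATS1 (0.62), and LEF1, at background, like KCNJ15 (0.82) and FAM57A (0.79).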

How the data were processed

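The deposited values are log2 intensities per probe set, made by the authors with RMA and Partek, per the submitters' processing notes; no source used here gives versions, settings or a genome build. RMA matches the distribution of probe intensities between arrays before they are summarised per probe set, so a shift of most genes would not be seen. Of 38535 probe sets, 153 controls and reporters were left out, and gene symbols came from the platform annotation, with 1 gene for 27168 probe sets, several for 177 and none for 11037. A gene with several probe sets was represented by the brightest.

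The members and all gene lists were chosen with earlier results of these data known. Lens differences were fitted with limma 3.58.1 in R 4.3.3 (lmFit and eBayes) on 48 arrays with the bird as a block, leaving 20 residual degrees of freedom, and control eyes on their 24 arrays. P-values are two-sided and adjusted by Benjamini-Hochberg over 38382 probe sets, with a threshold of 0.05. Eyes were paired by the bird's number in the sample titles. Deviations of a bird's eyes from their group means correlated above 0.1 in 20 of 24 birds (median 0.42). Every probe set of the 7 genes is described. Shares of all probe sets without overlap, or with all 6 birds on the same side of 0, are not given here. Such statements are therefore description only. Of the other listed genes, those called and the 3 with the lowest p in each lens condition and in control eyes over time are named, and LGR4, LGR5, LGR6, ZNRF3 and RSPO1 were named after their values were seen. On simulated data with 38382 probe sets, the fit for 6 hours of +15 D recovered 76% of changes of 0.5 log2 and 100% of changes of 1 log2, with 6 false among 182 calls. For control eyes over time the shares were 86% and 98%. For control eyes of -15 D against +15 D birds at 6 hours they were 53% and 94%. The simulated noise was drawn independently for each probe set and array. With 100 changes of each size added, the adjusted threshold was also easier to pass than in 2 of the real comparisons. Those called 0.00782% of probe sets (+15 D, 6 hours) and 0% (control eyes of -15 D against +15 D birds, 6 hours). These shares may therefore not hold for the real arrays, and they do not make an absence of calls there informative. Alternatives were array weights, a background filter, centring, no block, single conditions, left-out birds and, added after the data were seen, the choroid and sclera list as covariate and the loss of the 6 birds with the widest differences. Precision is limited by the number of arrays. No sequences or coordinates are given because no genome of the files' build was used here.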

Additional observations from a re-analysis of the deposited data

Results flagged for a closer look

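In 11 of 136 groups of 6 eyes or birds, 1 value lay far from the other 5, where chance gives about 1 in 20. RSPO3 stood at 8.82 in the control eye of bird 5 of the -15 D, 6 hours condition, with the others between 4.84 and 5.34, and at 8.57 in the control eye of bird 1 of the -15 D, 3 days condition, with the others between 4.95 and 5.48. FRZB was high in the same eyes, at 10.83 (others 9.72 to 9.97) and 10.78 (others 9.64 to 9.88). In the lens eye of bird 1 of the +15 D, 3 days condition, FRZB stood at 11.98 (others 9.55 to 10.34) and SFRP1 at 12.64 (others 12.29 to 12.40). LEF1, at background, read 4.68 in the lens eye of bird 3 after 6 hours of -15 D (others 3.88 to 4.10) and 3.75 in the lens eye of bird 3 after 3 days of -15 D (others 4.02 to 4.17). Of the within-bird differences, the second SFRP1 probe set was at 0.43 in bird 3 after 6 hours of -15 D (others -0.04 to 0.08). CTNNBIP1 was at -0.87 in bird 3 after 3 days of -15 D (others -0.45 to -0.22), and RYK at 0.80 in bird 1 after 3 days of +15 D (others -0.01 to 0.29).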

How the results depend on the processing

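There were 1311 alternative values of 79 results. A change of sign was counted only for member differences called in the main fit. RSPO2 after 6 hours of +15 D was the only such difference, and it kept its sign. RSPO3 after 6 hours of -15 D, not called, ran from -0.703 to 1.696 log2. Moves of more than 1 SD were also counted, which leaving out 1 of 6 birds cannot bring about. Fits without the block, above background only or on a single condition give the same mean differences by design, so they cannot either. Between control eyes of -15 D and +15 D birds such moves were not counted. The count is therefore no measure of stability. Of 1041 alternative member differences, those between sets of birds included, 4 moved that far. These were RSPO3 (-0.951 log2) and FRZB (-0.348 log2) after 3 days of -15 D with the choroid and sclera list as covariate, and WNT5A over time in control eyes within the -15 D birds (-0.402 log2) and within the +15 D birds (0.073 log2). The RSPO2 difference after 6 hours of +15 D stayed between -0.567 and -0.445 log2 over 13 alternatives, and its call held in 5. It was lost without bird 1, 3, 4, 5 or 6, in the 12 arrays of that condition alone, without the 6 birds with the widest differences and with no replicate block. Without the block on birds, the count of other pathway genes was 0 in every lens and duration comparison, as with it. After 3 days of -15 D, the count of 0 became 5 with array weights and 5 without the 6 birds with the widest differences (FZD9, CTNNBIP1, LGR5, IGFBP4 and CSNK1A1 in both), 2 in those 12 arrays alone and 1 above background only. None of the 6 birds left out belonged to this condition. Its log2 differences therefore stayed the same without them, and only the spread shared by the conditions changed. Calls of members on lens differences are description, since the genes were chosen with those values known. Array weights called 1 member probe set after 6 hours of -15 D (RSPO2) and 1 after 3 days of -15 D (WNT5A). Leaving out the 6 birds also called WNT5A after 3 days of -15 D. In control eyes over time, 1 member probe set was called in 1 of 32 alternatives, a fit with 1 eye left out. For the other genes array weights gave 1 after 6 hours of -15 D (APC). They gave 1 for dependence on duration under -15 D (CTNNBIP1), as did leaving out the 6 birds. The count of 2 in control eyes over time was 0 within the -15 D birds, 0 within the +15 D birds, 0 without the 6 birds, 4 above background only and 0 to 4 with 1 eye left out. For these alternatives of the lens, duration and control-eye time comparisons, the share of all probe sets called is not given here. The counts therefore show nothing particular to the pathway. Between control eyes of -15 D and +15 D birds at 6 hours, the count of 0 probe sets became 5861 with array weights and 0 to 2289 with 1 eye left out (2289 without bird 6 of the +15 D birds, with further calls without bird 2 or 6 of the -15 D birds). At 3 days it was 0 to 1. With array weights all 4 WNT5A probe sets were called at 6 hours. The cause was not tested. Signal over background limits LEF1, ASCL2, the third RSPO3 and the dimmest SFRP1 probe set. It also limits the dimmest probe sets of APC, DAAM2, WNT11 and DKK2.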
